A study of Mus musculus with 6 samples.

Results

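Imprinted genes are expressed mainly from the copy inherited from 1 parent, and 38 of them, chosen by name among the 55536 genes of the count table, were followed here in the testis of mice with mutations in genes of peptidylarginine deiminases (PADs). PADs convert arginine residues of proteins, histones among them, to citrulline. The WT mice were FVB/NJ. P2KO mice carried a gene trap in Padi2, in which part of exon 1 had been replaced by a reporter and a selection cassette, and DKO mice carried the same trap together with a deletion of 4 nucleotides in exon 1 of Padi4. Both mutants were homozygous and on the FVB/NJ background, and the DKO mice came from 1 line made by editing P2KO zygotes, so that the Padi4 deletion cannot be told apart from anything else that arose in that line. Testes were taken at 4 months of age, and each genotype was represented by 2 mice, 1 library each. The RNA was from whole testis and was selected for poly(A) tails. In bulk tissue fewer cells of a type and less RNA per cell cannot be told apart, and reads were not separated by parental allele, so every value is the sum of both copies.

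Imprints are laid down in the germ line. A control region of each imprinted domain is methylated in either the oocyte or the sperm, and the mark is kept after fertilization through the maintenance DNA methyltransferase and zinc-finger proteins such as ZFP57, which binds the methylated hexamer TGCCGC. In the germ cells of each new generation the marks are erased and set again by the sex of the individual, so an adult testis holds germ cells with a paternal pattern next to somatic cells with 1 maternal and 1 paternal copy. H19 is a long noncoding RNA transcribed from the maternal copy, Igf2 is its paternally expressed neighbour that encodes a fetal growth factor, and the control region between them is methylated in sperm.

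The 38 genes lie on 10 chromosomes in 18 domains. Chromosome 7 holds 16 of them, chromosome 12 holds 6, and none is on chromosome 4, where both Padi2 and Padi4 lie. By textbook knowledge 13 are expressed from the maternal copy and 24 from the paternal copy, and Gnas gives products of both kinds. The control region is methylated in sperm for 9 of them, in the H19-Igf2, Dlk1-Dio3 and Rasgrf1 domains, and in the oocyte for the other 29.

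Sequences of miRNAs are given for H19, 1 of the 2 genes called below, and for Mirg, which had the most counts in the Dlk1-Dio3 domain. An exon of H19 (chr7:142575529-142578143, minus strand, GRCm38) holds the hairpin of miR-675, with the 5p arm at chr7:142577112-142577133 and the 3p arm at chr7:142577078-142577099. Mirg, a maternally expressed noncoding RNA, overlaps 26 mature miRNAs of the RefSeq set on its strand, and of these miR-453 and miR-496a-5p have the same seed. The mature sequences below are from RefSeq (GRCm38.p6), with bases 2 to 8, the seed, in capitals. The libraries counted long RNA, so no level was measured for any of these miRNAs.
mmu-miR-675-5p: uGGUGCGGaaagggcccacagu
mmu-miR-675-3p: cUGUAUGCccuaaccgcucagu
mmu-miR-453: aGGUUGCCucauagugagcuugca
mmu-miR-496a-5p: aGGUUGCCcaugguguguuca

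Promoters are shown for 3 retrogenes that each sit within another gene and whose own promoter is the imprinted region. Mcts2 lies within H13, and Nap1l5 and Zrsr1 lie within Herc3 and Commd1. Mcts2 and Nap1l5 share no exonic base with their host in the annotation, and Zrsr1 shares 412 nucleotides (9.17%) with exons of Commd1 on the other strand. The windows run from 250 bases before to 50 after the RefSeq start, at chr2:152686898-152687197 (plus strand) for Mcts2, chr6:58907077-58907376 (minus strand) for Nap1l5 and chr11:22971755-22972054 (plus strand) for Zrsr1, in GRCm38.p6. Capitals mark TGCCGC or its reverse complement, searched on both strands with no other motif. Mcts2 had 1 match and 25 CpG dinucleotides, Nap1l5 had 2 matches and 17 CpG dinucleotides, and Zrsr1 had no match and 10 CpG dinucleotides.
Mcts2: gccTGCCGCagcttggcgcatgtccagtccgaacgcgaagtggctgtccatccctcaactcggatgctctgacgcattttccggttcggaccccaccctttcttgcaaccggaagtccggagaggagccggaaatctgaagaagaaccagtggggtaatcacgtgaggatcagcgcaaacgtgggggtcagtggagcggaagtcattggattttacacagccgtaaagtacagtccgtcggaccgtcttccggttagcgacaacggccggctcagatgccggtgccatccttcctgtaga
Nap1l5: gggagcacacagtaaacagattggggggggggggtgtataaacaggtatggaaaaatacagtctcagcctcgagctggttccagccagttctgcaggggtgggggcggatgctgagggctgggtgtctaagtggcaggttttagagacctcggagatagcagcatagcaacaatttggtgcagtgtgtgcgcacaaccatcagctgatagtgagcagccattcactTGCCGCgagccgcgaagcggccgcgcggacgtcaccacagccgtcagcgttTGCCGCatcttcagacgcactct
Zrsr1: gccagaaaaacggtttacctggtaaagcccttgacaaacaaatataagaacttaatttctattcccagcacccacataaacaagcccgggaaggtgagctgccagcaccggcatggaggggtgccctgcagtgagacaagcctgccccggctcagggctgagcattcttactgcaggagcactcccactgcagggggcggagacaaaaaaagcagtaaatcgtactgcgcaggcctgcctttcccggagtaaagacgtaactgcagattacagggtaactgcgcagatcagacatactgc

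Of the 38 genes, 31 had a promoter in the RefSeq table, with 46 promoters between them. The hexamer was found in 11 of the 46 (23.9%), belonging to 10 genes, and in 3813 of all 32851 promoters of the table (11.6%). The median number of CpG dinucleotides was 13.5 in the promoters of the imprinted genes and 7 in all promoters. These are descriptions of letters in the window, and whether ZFP57 binds there in testis was not measured. No promoter is given for H19, Cdkn1c, Impact, Kcnq1, Peg10, Rtl1 and Sgce.

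The 6 libraries held between 21939393 and 27306679 counts each, with TMM factors from 0.984 to 1.02. Padi4 was at 20 and 43 counts for WT, 11 and 10 for P2KO and 4 and 4 for DKO, and fell in DKO against WT (log2 fold change -2.94, SE 0.513, adjusted p = 0.000278 in edgeR's quasi-likelihood test). Its value was also below WT in P2KO, where the labels give no Padi4 deletion, without passing the test (-1.63, SE 0.423, adjusted p = 0.0959). In DKO against P2KO, the edited line against the mice it was made from, it did not pass either (-1.31, SE 0.628, adjusted p = 0.404). Padi2 had 47 and 64 counts in WT, 100 and 55 in P2KO and 59 and 83 in DKO. Padi2 was not lower in either mutant (log2 fold change 0.40 in P2KO, SE 0.239, and 0.35 in DKO, SE 0.242, against WT), so its counts do not serve as a check of the labels. The trap replaced only a part of the first exon, and counts over the whole gene do not show which transcripts were made, so the genotypes are named below as labelled. Germ cell and somatic markers of testis were present in every library, with spermatid markers (Acrv1, Tnp1, Tnp2, Prm1, Prm2 and Spaca1) summing to between 10580 and 13060 CPM (counts per 1000000 counts of TMM-scaled library size) and markers of epididymis and fat to between 9.90 and 11.5.

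Levels between genes are given as RPKM (reads per kilobase of merged exons per 1000000 counts of TMM-scaled library size), as mean ± SD over the 6 libraries. Of the 38 imprinted genes, 11 had a mean of at least 1 in adult testis. The share of all genes at that level was not taken, so imprinted genes are not compared with others here. The highest was Mcts2, a translation-associated factor, at 17.9 ± 1.39 RPKM. Gnas, which encodes the stimulatory G-protein alpha subunit, followed at 9.81 ± 0.549, and H13, a signal peptide peptidase and the host gene of Mcts2, at 7.77 ± 0.180. The ranges of Mcts2 and Gnas over the 6 libraries stood clear of all genes below them. That of H13 stood clear of Peg10, the next gene, but not of Cdkn1c, which reached 7.95 in WT 1.

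Peg10, a gene derived from a retrotransposon and needed in the placenta, reached 6.57 ± 0.636 RPKM. Cdkn1c, an inhibitor of cyclin-dependent kinases, was at 6.29 ± 1.17, and Ube3a, a ubiquitin ligase, at 4.53 ± 0.225. Peg10 and Cdkn1c overlapped in their ranges, as did Cdkn1c and Ube3a. The order of Peg10 and Cdkn1c depends on the genotype. In WT, Cdkn1c was at 7.95 and 7.09 RPKM and Peg10 at 6.205 and 5.74. In P2KO they were at 5.35 and 6.55 against 6.15 and 7.26, and in DKO at 4.71 and 6.08 against 6.80 and 7.27. Grb10, an adaptor that dampens insulin and IGF receptor signalling, was at 2.87 ± 0.123, and its range overlapped neither Ube3a above nor Igf2r below it.

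Igf2r, the receptor that clears IGF2 to the lysosome, was at 2.18 ± 0.274 RPKM and overlapped Zrsr1, a splicing-factor retrogene, at 1.90 ± 0.121. Mirg was at 1.55 ± 0.136 and overlapped Impact, a regulator of translation, at 1.32 ± 0.153. From Mirg down to Zim1 every neighbour in the order overlapped the next. H19 had rank 16 by its mean over all 6 libraries, at 0.570 ± 0.208 RPKM. Its place depends on the genotype, since H19 was at 0.877 and 0.598 RPKM in WT, 0.573 and 0.688 in P2KO and 0.365 and 0.316 in DKO. Igf2 was at 0.0175 ± 0.00859.

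**Figure D1:**
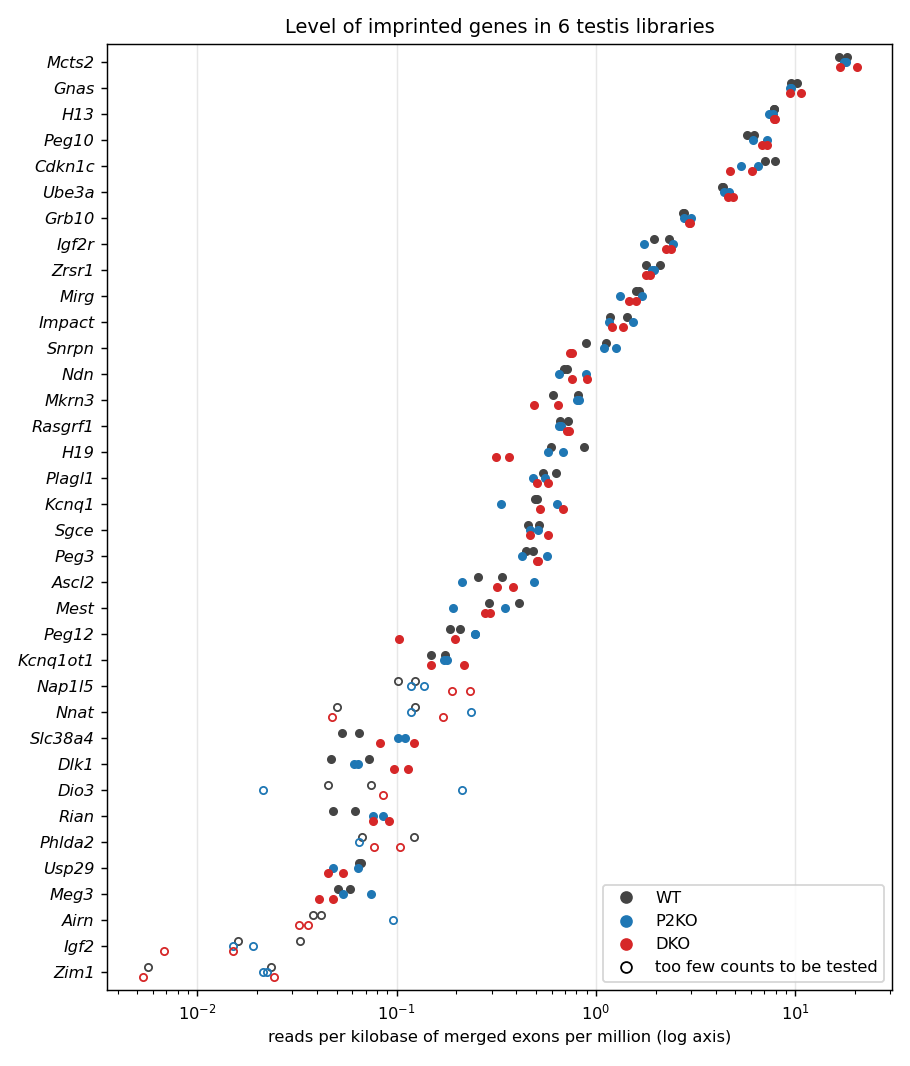
Level of 36 imprinted genes in each of the 6 testis libraries, in RPKM on a log axis, ordered by mean, with WT in black, P2KO in blue and DKO in red and open circles for genes with too few counts to be tested. Levels run from about 20.4 RPKM for the highest library of Mcts2 down to 0.00534 for the lowest of Zim1, and values of 0 (all of Rtl1 and Magel2 and single libraries of Phlda2, Dio3 and Airn) have no place on the axis.

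Some genes of 1 domain differed in level, and others overlapped in their ranges, such as Snrpn (0.982 ± 0.215 RPKM), Ndn (0.772 ± 0.105) and Mkrn3 (0.698 ± 0.136), or Meg3 (0.0544 ± 0.0114) and Rian (0.0732 ± 0.0160), each as mean and SD over the 6 libraries. Per length, Mcts2 was between 2.12 and 2.57 times its host H13 over the 6 libraries, with a median of 2.33. Peg10 was between 11.8 and 15.6 times Sgce (median 12.3), the gene of a sarcoglycan that starts next to it on the other strand. Mirg was between 17.8 and 39.0 times Meg3 (median 31.1) and between 17.3 and 33.2 times Rian (median 19.7), although all 3 are noncoding RNAs of the same strand and domain. Cdkn1c was between 28.0 (in DKO 2) and 53.4 (in WT 1) times Kcnq1ot1 (median 34.6), the noncoding RNA whose transcription silences it in cis. Cdkn1c itself was lower in DKO than in WT, as given below, so this ratio depends on the genotype. Peg3, a zinc-finger gene, was between 6.70 and 11.8 times Usp29 (median 8.52), a gene of the ubiquitin-specific protease family. Kcnq1ot1 and other RNAs that are unspliced or carry few poly(A) tails are counted over a long annotated length after poly(A) selection, and how far that lowers their RPKM was not tested.

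The other 9 genes had too few counts to be tested. Rtl1, a retrotransposon-derived placental gene, and Magel2, a gene of the Prader-Willi region, had 0 counts in all 6 libraries, which allows up to 0.110 to 0.137 CPM in a library. Phlda2, a placental growth regulator, had 0 to 3 counts, and Igf2 had 1 to 5. Zim1, a zinc-finger gene, also had 1 to 5. Airn, the noncoding RNA that silences Igf2r in cis, had 0 to 8, and Nap1l5, related to nucleosome assembly proteins, had 5 to 10. Dio3, the enzyme that inactivates thyroid hormone, had 0 to 12, and Nnat, a small membrane protein, had 2 to 12. Without the filter on low counts none of the 7 with any count passed an adjusted p of 0.05 in any comparison. Igf2 is also counted with a loss: 62.8% of its exonic bases are shared with Gm49394 on the same strand, and STAR counts a read on shared bases for neither gene.

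The first comparison sets mice labelled as Padi2 single knockouts against WT. In P2KO against WT, 0 of the 29 tested imprinted genes were called by edgeR's quasi-likelihood test, where 0.337% of all 20744 tested genes were, and DESeq2 also called 0. At an unadjusted p under 0.05 there were 2, Cdkn1c and Peg10, which is 6.90% of the 29 beside 8.57% of all tested genes. The libraries of P2KO lay above both WT libraries for 5 genes (17.2%, against 18.7% of all genes) and below both for 3 (10.3%, against 18.8%). The log2 fold change was above 0 for 17 of the 29 (58.6%, against 51.0% of all genes), and its median was 0.03, beside 0.0035 for all tested genes. With an offset in the fit for gene length (the length offset) the median was -0.014, and without P2KO 2 it was -0.016.

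In the second comparison, DKO against WT, 2 of the 29 genes fell and none rose, where 2.06% of all tested genes were called higher. The 2 were H19 and Cdkn1c, both expressed from the maternal copy, and they make 6.90% of the 29 where 3.22% of all tested genes were called and 1.16% were called lower. DESeq2 called 0, but gave an adjusted p to only 17 of the 29 on all libraries and to 25 on the 2 genotypes compared. At an unadjusted p under 0.05 there were 4 (13.8%, against 14.1% of all genes), the other two being Peg10 and Ube3a, both higher. The DKO libraries lay above both WT libraries for 10 genes (34.5%, against 21.6% of all genes) and below both for 5 (17.2%, against 21.6%). For 4 of the 29 genes fewer than 6 libraries passed the minimum count, and 2 of these, Slc38a4 and Dlk1, are among the 10 (Slc38a4 also among the 5 in P2KO above), so these counts depend in part on the filter. The log2 fold change was above 0 for 17 (58.6%, against 48.8% of all genes), and its median was 0.07, beside -0.0048 for all tested genes. The median was -0.06 with the length offset, 0.0061 without DKO 2 and 0.015 without WT 2.

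The third comparison sets DKO, the edited line with the Padi4 deletion, against P2KO, which carries the Padi2 trap alone. edgeR's test called 0 of the 29 genes, where 1.21% of all tested genes were called. DESeq2 called 0, but gave an adjusted p to only 17 of the 29 on all libraries and to 3 on the 2 genotypes compared, and to H19 in neither. H19 and Snrpn had an unadjusted p under 0.05, both lower in DKO, which is 6.90% of the 29 beside 11.8% of all genes. The DKO libraries lay above both P2KO libraries for 3 genes (10.3%, against 21.1%) and below both for 6 (20.7%, against 21.6%). Dlk1 is among the 3 and passed the minimum count in 2 DKO, 1 WT and 0 P2KO libraries, so that count depends in part on the filter. The log2 fold change was above 0 for 18 (62.1%, against 49.2% of all genes), and its median was 0.05, beside -0.0028 for all tested genes. The median was -0.0051 with the length offset and -0.0070 without P2KO 1. The 3 comparisons share libraries with each other and are not independent.

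**Figure D2:**
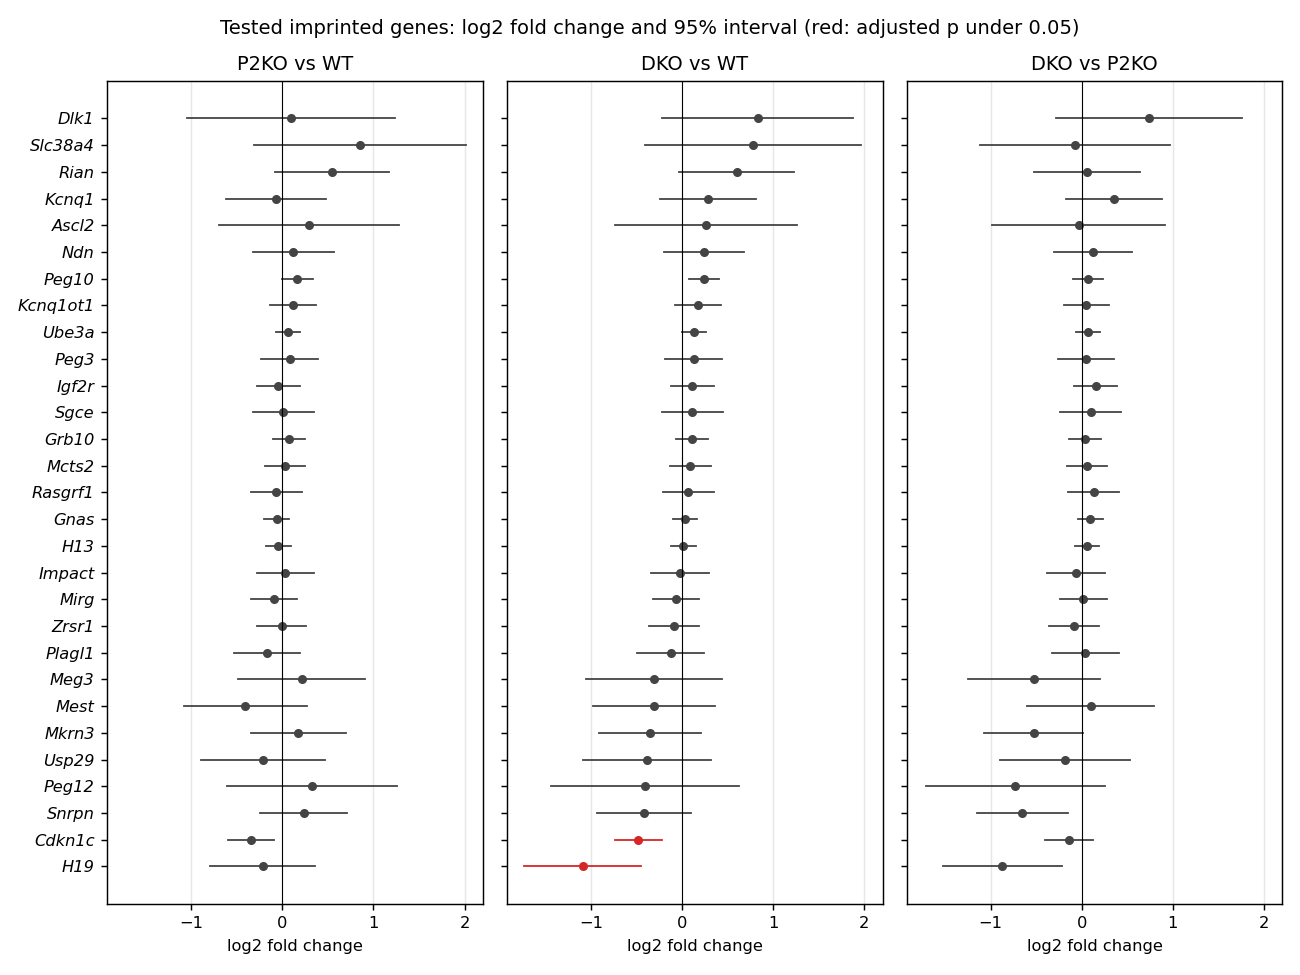
Log2 fold change (points) and its 95% interval (bars) of the 29 tested imprinted genes in P2KO against WT, DKO against WT and DKO against P2KO, ordered by the middle panel, with genes at an adjusted p under 0.05 in red. H19 (-1.09) and Cdkn1c (-0.48) in DKO against WT are the 2 in red, and the genes with few counts, such as Dlk1 and Slc38a4, have the widest bars.

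The intervals show what size of change could be seen. The 95% interval of the log2 fold change lay within a 2-fold change either way for 23 of the 29 genes in P2KO against WT, for 21 in DKO against WT and for 22 in DKO against P2KO. For the others the interval reached beyond 2-fold. H19 in DKO against WT is among them, with a log2 fold change of -1.09 that is itself beyond 2-fold. Groups of 2 allow no exact permutation p below 0.333, so p-values here come from the fit across all genes, which shares information on the spread.

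The counts of H19 were 47 and 39 in WT, 39 and 39 in P2KO and 23 and 18 in DKO. Scaled to a common library size, these are normalized counts of 53.0 and 36.1 in WT, 34.6 and 41.5 in P2KO and 22.0 and 19.1 in DKO. Both DKO libraries were below all 4 others, and the P2KO and WT libraries overlapped. The means were 44.5 ± 11.9 in WT, 38.1 ± 4.90 in P2KO and 20.6 ± 2.09 in DKO (SD, n = 2). H19 fell in DKO against WT by 53.0% (log2 fold change -1.09, SE 0.317, 95% interval -1.73 to -0.45, adjusted p = 0.0488). The log2 fold change was -0.22 in P2KO against WT (SE 0.283, adjusted p = 0.896) and -0.87 in DKO against P2KO (SE 0.322, adjusted p = 0.220), and neither passed. The value in P2KO against WT was 0.065 without WT 1 and -0.48 without WT 2, so its sign rests on WT 1.

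The H19 call rests close to its threshold and on few counts. Over the 17 alternatives that gave it an adjusted p, the log2 fold change stayed between -1.36 and -0.81 while the adjusted p ran from 0.0143 to 0.588 and passed in 6. It was lost without WT 1 (-0.81, adjusted p = 0.302), DKO 1 (-1.21, 0.180) or DKO 2 (-0.99, 0.326), and, with the fold change at -1.09, without P2KO 1 (0.0538) or P2KO 2 (0.0599).

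Igf2, the neighbour of H19, had 2 and 5 counts in WT, 3 and 2 in P2KO and 1 and 2 in DKO. Counts this low show no order between the genotypes. Igf2r had 473 and 482 counts in WT, 448 and 522 in P2KO and 535 and 512 in DKO. Its normalized counts were 533 and 446, 397 and 556, and 513 and 543, and the genotypes overlapped (DKO against WT log2 fold change 0.11, SE 0.115, 95% interval -0.12 to 0.35, adjusted p = 0.746).

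Cdkn1c (chr7:143458339-143461050, minus strand) had 353 and 383 counts in WT, 302 and 308 in P2KO and 246 and 287 in DKO, or normalized counts of 398 and 354.5, 268 and 328, and 236 and 304. Every P2KO and DKO library was below both WT libraries, and the P2KO and DKO libraries overlapped. Its means were 376 ± 30.5 in WT, 298 ± 42.4 in P2KO and 270 ± 48.5 in DKO (SD, n = 2). Cdkn1c fell in DKO against WT by 28.3% (log2 fold change -0.48, SE 0.126, 95% interval -0.74 to -0.22, adjusted p = 0.0234). In P2KO against WT its log2 fold change was -0.34 (SE 0.124, adjusted p = 0.382), and it was -0.19 without P2KO 1 and -0.49 without P2KO 2. In DKO against P2KO it was -0.14 (SE 0.129, adjusted p = 0.732), which turned to 0.033 without DKO 1 and 0.014 without P2KO 2.

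Over 19 alternatives Cdkn1c had log2 fold changes from -0.67 to -0.31 in DKO against WT and adjusted p-values from 0.00535 to 0.433, and passed in 13. The call was lost without WT 1 (-0.40, adjusted p = 0.0948) and without DKO 1 (-0.31, adjusted p = 0.433), and with DESeq2 on all libraries (-0.48, adjusted p = 0.140). Of its exonic bases, 30.7% are shared with Gm44732 on the other strand. The deposited counts separate the strands, since 38 of 460 genes covered in full by exons of the other strand had at least 60 counts, against 0 of 765 genes covered in full by exons of their own strand.

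**Figure D3:**
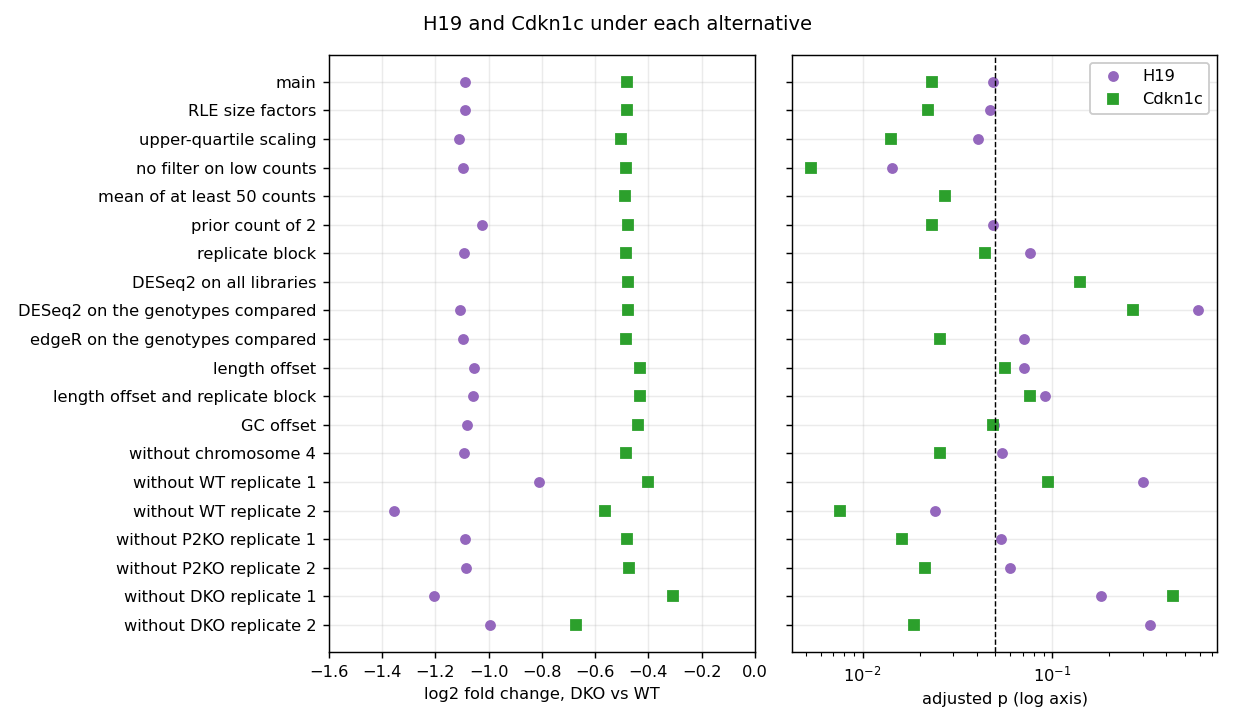
Log2 fold change in DKO against WT (left) and adjusted p on a log axis (right) for H19 (circles) and Cdkn1c (squares) under the analysis as reported and under each alternative, with a dashed line at an adjusted p of 0.05. The fold changes stay below 0 throughout, from -1.36 to -0.81 for H19 and from -0.67 to -0.31 for Cdkn1c, while the adjusted p crosses the line for both.

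The other genes of the Kcnq1 domain, which shares distal chromosome 7 with H19, did not pass any test. Kcnq1ot1 had normalized counts of 340 and 398 in WT, 408 and 396 in P2KO and 342 and 496 in DKO, and the genotypes overlapped (DKO against WT log2 fold change 0.17, SE 0.13, adjusted p = 0.600). Kcnq1, a potassium channel, had a log2 fold change of 0.28 in that comparison (SE 0.260, adjusted p = 0.707). Ascl2, a transcription factor of the placenta, had 8 to 22 counts and a log2 fold change of 0.26 (SE 0.491, adjusted p = 0.886).

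**Figure D4:**
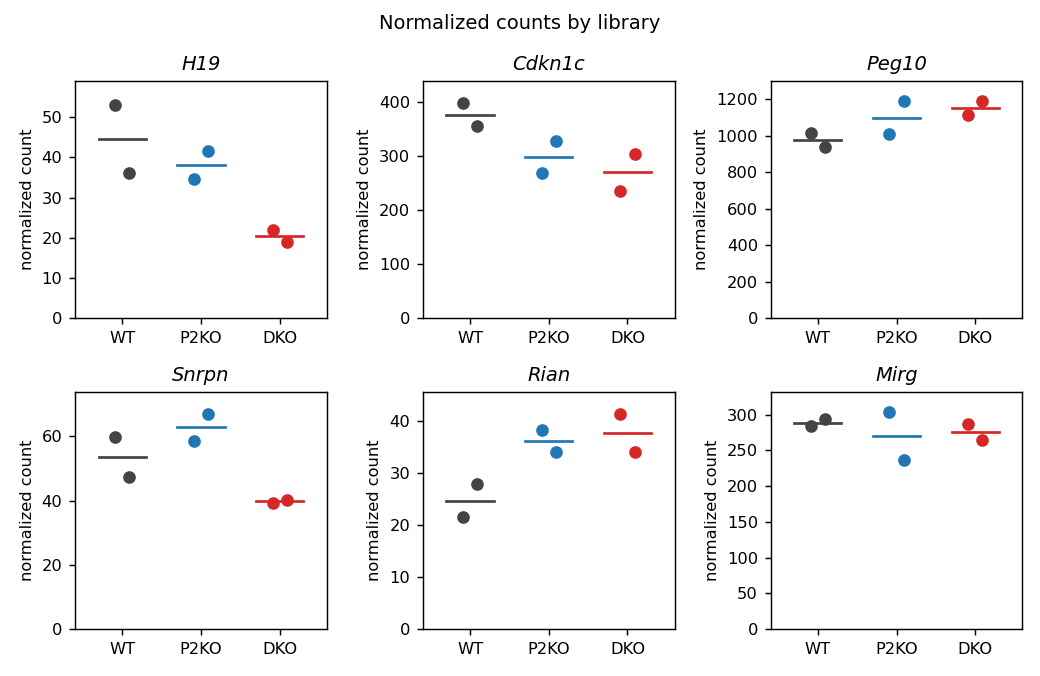
Normalized counts of H19, Cdkn1c, Peg10, Snrpn, Rian and Mirg in each of the 6 libraries (points) with the mean of each genotype (line), on axes that start at 0. Both DKO libraries of H19 lie between 19.1 and 22.0, below the other 4, and the 6 libraries of Mirg lie between 236 and 304 with the genotypes overlapping.

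In the Dlk1-Dio3 domain on chromosome 12, whose control region is methylated in sperm like that of H19, none of the 4 tested genes passed. Dlk1, a paternally expressed Notch-like ligand, had 9 and 7 counts in WT, 10 and 8 in P2KO and 14 and 15 in DKO. Its normalized counts were 13.4 and 15.9 in DKO against 10.1 and 6.48 in WT. It was tested because both DKO libraries and 1 WT library passed the minimum count, so that DKO was highest is in part set by that filter. The fit gave a log2 fold change of 0.83 with an SE of 0.515 and an adjusted p of 0.509 in DKO against WT. Meg3, the maternally expressed noncoding RNA at the start of the cluster, had 20 and 28 counts in WT, 27 and 31 in P2KO and 19 and 20 in DKO (DKO against WT log2 fold change -0.31, SE 0.367, adjusted p = 0.793).

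Rian, a host of small nucleolar RNAs, had 19 and 30 counts in WT, 43 and 32 in P2KO and 43 and 32 in DKO. Both mutants were above both WT libraries, with normalized counts of 21.4 and 27.8 in WT, 38.1 and 34.1 in P2KO and 41.2 and 33.9 in DKO. Its log2 fold change was 0.54 in P2KO against WT (SE 0.309, adjusted p = 0.658) and 0.60 in DKO against WT (SE 0.309, adjusted p = 0.384), and neither passed. These values share the WT libraries.

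Mirg, the host of miR-453 and miR-496a-5p, was the deepest-counted member of the domain, with 252 and 317 counts in WT, 343 and 222 in P2KO and 299 and 249 in DKO. Its normalized counts were 284 and 293, 304 and 236, and 286 and 264. The genotypes overlapped, and the 95% interval in DKO against WT, from -0.32 to 0.19 on the log2 scale, lies within a 2-fold change either way (log2 fold change -0.07, SE 0.13, adjusted p = 0.881). Dio3 had 2 and 4 counts in WT, 12 and 1 in P2KO and 0 and 4 in DKO, so that its P2KO libraries spanned nearly the whole range.

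Rasgrf1, a Ras exchange factor and the third domain with a control region methylated in sperm, had 175 and 194 counts in WT, 205 and 166 in P2KO and 203 and 188 in DKO. Its normalized counts were 197 and 180 in WT, 182 and 177 in P2KO and 195 and 199 in DKO. The WT range overlapped both mutants (DKO against WT log2 fold change 0.07, SE 0.138, 95% interval -0.21 to 0.35, adjusted p = 0.898). Of the 6 tested genes in the 3 sperm-methylated domains, H19 alone passed in DKO against WT, and their median log2 fold change was -0.00094, beside 0.09 for the 23 tested genes of the oocyte-methylated domains.

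Among the 11 tested maternally expressed genes, 7 had a log2 fold change above 0 in DKO against WT and the median was 0.11, and among the 17 tested paternally expressed genes, 9 were above 0 and the median was 0.07. In P2KO against WT the same medians were -0.04 and 0.08, and in DKO against P2KO they were 0.03 and 0.05. These medians are descriptions, and no test of a difference between the parental classes was run.

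Peg10 had 901 and 1014 counts in WT, 1135 and 1116 in P2KO and 1162 and 1122 in DKO. The normalized counts were 1015 and 939 in WT, 1007 and 1188 in P2KO and 1113 and 1190 in DKO, so that both DKO libraries and 1 of the 2 P2KO libraries were above both WT libraries. The log2 fold change in DKO against WT was 0.24 (SE 0.0816, 95% interval 0.07 to 0.40), with an adjusted p of 0.119, and without WT 1 it was 0.29 with an adjusted p of 0.0464. Sgce, which shares the control region of Peg10, had a log2 fold change of 0.11 (SE 0.165, adjusted p = 0.843).

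The Snrpn domain on chromosome 7, the mouse counterpart of the Prader-Willi and Angelman region, held 5 tested genes and none passed. Snrpn, a small nuclear ribonucleoprotein gene, had 53 and 51 counts in WT, 66 and 63 in P2KO and 41 and 38 in DKO. The DKO libraries, at normalized counts of 39.3 and 40.3, lay below those of P2KO (58.5 and 67.1) and of WT (59.7 and 47.2), and the log2 fold change was -0.65 in DKO against P2KO (SE 0.246, adjusted p = 0.234) and -0.42 in DKO against WT (SE 0.254, adjusted p = 0.501). Exons of other genes on the same strand, Snurf among them, share 27.3% of the exonic bases of Snrpn.

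Mkrn3 and Peg12, both paternally expressed, also had both DKO libraries below both P2KO libraries. Mkrn3, a ring-finger gene linked to the timing of puberty, had 34 and 55 counts in WT, 58 and 47 in P2KO and 32 and 38 in DKO (DKO against P2KO log2 fold change -0.52, SE 0.268, adjusted p = 0.448). Peg12, with 7 to 18 counts, had a log2 fold change of -0.73 there (SE 0.483, adjusted p = 0.590). Ndn, a paternally expressed gene of the same domain, went the other way at 0.12 (SE 0.213, adjusted p = 0.886).

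Ube3a, expressed from both copies in most cells and from the maternal copy in neurons, had 1923 and 2388 counts in WT, 2512 and 2207 in P2KO and 2433 and 2335 in DKO. Its normalized counts were 2166 and 2211, 2228 and 2350, and 2331 and 2476. Every mutant library was above both WT libraries, with a log2 fold change of 0.06 in P2KO (SE 0.0650, adjusted p = 0.854) and 0.13 in DKO (SE 0.0650, adjusted p = 0.343), and neither passed. Snhg14 and other genes of the other strand share 27.3% of its exonic bases.

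The other highly expressed genes differed little. Gnas had 2496 and 2823 counts in WT, 2905 and 2456 in P2KO and 3078 and 2451 in DKO, with a log2 fold change of 0.03 in DKO against WT (SE 0.0668, 95% interval -0.10 to 0.17, adjusted p = 0.894). H13 had 1513 and 1841 counts in WT, 1904 and 1521 in P2KO and 1788 and 1635 in DKO, or normalized counts of 1704 and 1704, 1689 and 1619, and 1713 and 1733 (log2 fold change 0.02, SE 0.0670, adjusted p = 0.957). Mcts2 had 329 and 440 counts in WT, 454 and 369 in P2KO and 392 and 431 in DKO (log2 fold change 0.09, SE 0.109, adjusted p = 0.792). The WT and DKO libraries overlapped for Gnas and Mcts2, and for H13 both DKO libraries were above both WT libraries by a small margin.

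Grb10 had 547 and 660 counts in WT, 757 and 582 in P2KO and 695 and 619 in DKO. Its normalized counts were 616 and 611 in WT, 671 and 620 in P2KO and 666 and 656 in DKO, so every mutant library was above both WT libraries, by a log2 fold change of 0.08 in P2KO (SE 0.0873, adjusted p = 0.877) and 0.11 in DKO (SE 0.0874, adjusted p = 0.653). Zrsr1 had 174 and 250 counts in WT, 237 and 204 in P2KO and 215 and 186 in DKO, and the WT libraries overlapped both mutants (DKO against WT log2 fold change -0.09, SE 0.135, adjusted p = 0.847).

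The remaining tested genes, Peg3, Usp29, Mest, Plagl1, Impact and Slc38a4, had log2 fold changes between -0.39 and 0.78 in DKO against WT. Mest, an alpha/beta hydrolase gene, had 21 to 43 counts and a log2 fold change of -0.31 (SE 0.330). Slc38a4, an amino acid transporter, had 6 and 6 counts in WT, 13 and 10 in P2KO and 9 and 12 in DKO. Only 3 libraries, none of them WT, passed the minimum count that let it be tested, so its lower WT values are in part set by that filter. Its log2 fold change was 0.85 in P2KO (SE 0.574, adjusted p = 0.735) and 0.78 in DKO (SE 0.583, adjusted p = 0.613) against WT, with intervals that include 0. Plagl1, a zinc-finger regulator of other imprinted genes, had 87 to 121 counts and a log2 fold change of -0.13 (SE 0.179, adjusted p = 0.836).

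Other imprinted genes, taken as a list of 53 genes in the table of which 41 were tested, gave 2 called genes in DKO against WT (4.88%, against 3.22% of all genes). At an unadjusted p under 0.05 there were 8 in that comparison, 7 higher and 1 lower (19.5%, against 14.1% of all genes). In P2KO against WT edgeR called 0 of the 41, with 6 at an unadjusted p under 0.05, all higher (14.6%, against 8.57% of all genes), and in DKO against P2KO it called 0, with 3 higher and 3 lower at that level (14.6%, against 11.8%). DESeq2 called 0 in all 3 comparisons. In DKO against WT on all libraries it gave an adjusted p to 14806 genes. In DKO against P2KO on the 2 genotypes compared it gave one to 4055. A gene of this or the later lists that DESeq2 did not call may therefore have had no adjusted p. Dhcr7, the last enzyme of cholesterol synthesis and a neighbour of the Kcnq1 domain, rose by a log2 fold change of 0.35 (SE 0.0998, adjusted p = 0.0466). Ppp1r9a, a neuronal scaffold gene next to the Peg10 domain, rose by 0.32 (SE 0.0835, adjusted p = 0.0204). Both went in the opposite direction to H19 and Cdkn1c. The call of Dhcr7 passed in 7 of 19 alternatives, with adjusted p-values up to 0.603, and was lost with the replicate block (0.0727), upper-quartile scaling (0.0675), edgeR on the 2 genotypes (0.0765), the length offset (0.0812) and without chromosome 4 (0.0561). It was also lost without WT 2 (0.29, adjusted p = 0.281), P2KO 2 (0.35, 0.0505) or DKO 1 (0.19, 0.603). The call of Ppp1r9a passed in 13 of 19, and was lost with the length offset (0.18, adjusted p = 0.319) and without WT 2 (0.25, 0.291) or DKO 2 (0.25, 0.374).

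Of 24 genes for the setting and keeping of imprints, 23 were tested and 2 fell in DKO against WT (8.70%, where 1.16% of all genes were called lower and 3.22% in all). Kdm1a, a histone lysine demethylase, had a log2 fold change of -0.28 (SE 0.0663, adjusted p = 0.00854), and Rbbp4, a histone-binding subunit of several chromatin complexes, of -0.32 (SE 0.0598, adjusted p = 0.000690). Rbbp4 also fell in DKO against P2KO (-0.32, adjusted p = 0.00170), and DESeq2 made the same 3 calls. Without DKO 2 the calls of Kdm1a (-0.23, adjusted p = 0.263) and of Rbbp4 against P2KO were lost, the latter also without P2KO 1, with adjusted p-values of up to 0.0928. Both lie on chromosome 4, at 136.6 and 129.3 Mb, the chromosome of Padi2 and Padi4, and linkage to the edited locus cannot be told apart from an effect of its loss. The DNA methyltransferases, the TET enzymes, Zfp57, Trim28, Uhrf1 and Ctcf are in this list, and none of them was called by edgeR or DESeq2. At an unadjusted p under 0.05 there were 3 higher and 3 lower in DKO against WT (26.1%, against 14.1% of all genes), 2 higher and 3 lower in DKO against P2KO (21.7%, against 11.8%) and 0 in P2KO against WT (where 8.57% of all genes were). Among them Tet2, a methylcytosine dioxygenase, had normalized counts of 49.6 and 46.3 in WT, 56.8 and 52.2 in P2KO and 74.7 and 79.5 in DKO (log2 fold change in DKO against WT 0.69, SE 0.223, adjusted p = 0.0912). Dnmt3l, the cofactor of the de novo methyltransferases in germ cells, had 262.5 and 225 in WT, 259 and 267 in P2KO and 170 and 213 in DKO (-0.35, SE 0.137, adjusted p = 0.201). Dnmt1, the maintenance methyltransferase, was at 0.22 (adjusted p = 0.0985) and Tet3 at 0.32 (adjusted p = 0.305).

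Of 18 genes of the IGF pathway, 17 were tested and 1 was called in DKO against WT (5.88%, against 3.22% of all genes), with 5 at an unadjusted p under 0.05 (29.4%, against 14.1%). Igfbp5, an IGF-binding protein, had 12 and 22 counts in WT, 9 and 30 in P2KO and 46 and 45 in DKO. It rose in DKO against WT by a log2 fold change of 1.41 (SE 0.388, adjusted p = 0.0329), with both DKO libraries above all 4 others. Against P2KO it did not pass (1.25, SE 0.378, adjusted p = 0.105), and the list had 0 called genes there, with 4 at an unadjusted p under 0.05, all higher (23.5%, against 11.8%), and 0 in P2KO against WT, with 1 at that level, lower (5.88%, against 8.57%). Its call was lost without WT 1 (log2 fold change 1.16), DKO 1 (1.46) or DKO 2 (1.35). DESeq2 called 0 of the list, but on all libraries it gave Igfbp5 no adjusted p in DKO against WT. On the 2 genotypes compared DESeq2 gave it 1.43 (adjusted p = 0.242). Igf1r (log2 fold change 0.21, adjusted p = 0.310), Insr (0.24, 0.169), Irs1 (-0.09, 0.941) and Irs2 (0.25, 0.491) belong to the list and did not pass in DKO against WT.

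Cell type markers moved between the genotypes as well. The marker lists were chosen with earlier results of these data known, so their shares beside those of all genes are descriptions only. Of 8 Leydig cell markers, Star, Hsd3b6, Cyp17a1 and Cyp11a1 rose in DKO against WT (4 of the 8, where 3.22% of all genes were called) and Hsd3b6 rose in DKO against P2KO. At an unadjusted p under 0.05 there were 2 higher and 2 lower in P2KO against WT (4 of the 8, where 8.57% of all genes were), 4 higher and 1 lower in DKO against WT (62.5%, against 14.1%) and 4 higher and 1 lower in DKO against P2KO (62.5%, against 11.8%). Lhcgr, the receptor for luteinizing hormone, went the other way, with normalized counts of 238 and 276 in WT, 252 and 287 in P2KO and 204 and 193 in DKO (log2 fold change in DKO against WT -0.38, adjusted p = 0.128, and against P2KO -0.44, adjusted p = 0.0982). The sum of the 8 was 718 and 689 CPM in WT, 817 and 724 in P2KO and 963 and 779 in DKO, with none of the 8 at 3 counts or fewer. DKO 1 was the highest library, and without it Cyp11a1 (log2 fold change 0.07, adjusted p = 0.811), Cyp17a1 (0.08, 0.805) and Hsd3b6 (0.31, 0.0725) were not called against WT. DESeq2 on all libraries called Hsd3b6 alone in either comparison. On the 2 genotypes compared it called Star and Hsd3b6 in DKO against WT, Hsd3b6 in DKO against P2KO and Cyp11a1, higher, in P2KO against WT. Of 6 spermatid markers, Tnp1 and Prm1 fell in DKO against WT (33.3%, against 3.22% of all genes). Tnp2 fell in P2KO against WT (16.7%, against 0.337%) and Spaca1 fell in DKO against P2KO (16.7%, against 1.21%). In P2KO against WT all 6 had an unadjusted p under 0.05, 4 lower and 2 higher, where 8.57% of all genes had one. In DKO against WT 4 did, all lower (66.7%, against 14.1%), and in DKO against P2KO 1 was higher and 1 lower (33.3%, against 11.8%). The sum of the 6 was 12580 and 13060 CPM in WT, 10580 and 11790 in P2KO and 11410 and 11490 in DKO. With the length offset Tnp1 was at -0.15 (adjusted p = 0.194) and Prm1 at -0.12 (0.325), and neither was called. The call of Tnp1 was also lost without DKO 1 (adjusted p = 0.228) or DKO 2 (0.0636), and that of Prm1 without WT 2 (0.0992), DKO 1 (0.269) or DKO 2 (0.139). Spaca1 was lost without P2KO 1 (0.614), DKO 1 (0.215) or DKO 2 (0.399) and Tnp2 without P2KO 1 (0.0784). DESeq2 on all libraries called Tnp2 in P2KO against WT and no other spermatid marker. Spaca1 was also not called with the replicate block (adjusted p = 0.07125) or the length offset (0.0588). It lies on chromosome 4, at 34.0 Mb, and linkage to the edited locus was not tested. DESeq2 on the 2 genotypes compared made the same 4 calls as edgeR and also called Tnp2 higher in DKO against P2KO.

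None of the markers of Sertoli cells (9 genes, 926 to 1074 CPM summed), peritubular myoid cells (5 genes, 54.0 to 71.0), endothelium (5 genes, 26.1 to 30.6), macrophages (5 genes, 42.7 to 53.0), spermatogonia (7 genes, 61.7 to 72.6), spermatocytes (6 genes, 1038 to 1100) or epididymis and fat (7 genes, of which 2 were tested and 3 were at 3 counts or fewer in every library) was called by edgeR or DESeq2 in any comparison. Of the 5 endothelial markers, 4 had both DKO libraries above both WT libraries, where 21.6% of all genes did, and the median log2 fold change of the 5 was 0.43. An unadjusted p under 0.05 was reached by 2 of them, both higher, in DKO against WT (where 14.1% of all genes reached it) and by 2, both higher, in DKO against P2KO (11.8%). All 9 Sertoli cell markers had a log2 fold change above 0 in P2KO against WT (51.0% of all genes, median of the 9 0.11) and below 0 in DKO against P2KO (where 49.2% of all genes were above 0, median of the 9 -0.08). At an unadjusted p under 0.05, P2KO against WT had 1 higher Sertoli cell marker, 1 higher spermatogonia marker, 1 lower macrophage marker and 1 lower peritubular myoid marker, beside 8.57% of all genes. DKO against WT had, besides the endothelial ones, 1 lower spermatogonia marker and 1 lower marker of epididymis and fat. DKO against P2KO had 2 higher peritubular myoid markers, 1 higher macrophage marker, 2 lower spermatogonia markers and 1 lower Sertoli cell marker. Without DKO 1, the library highest in Leydig cell markers, H19 was at -1.21 and Cdkn1c at -0.31 in DKO against WT, as given above. The part that these markers have in the lower H19 and Cdkn1c of DKO testes was not tested.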

How the data were processed

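Testis RNA of 6 mice was sequenced as paired reads from strand-specific, poly(A)-selected libraries. Per the labels and the methods, the authors trimmed reads with Trim Galore and cutadapt, aligned them to GRCm38 with Ensembl annotation by STAR, and deposited its whole-number counts per gene, with no normalization; versions and the strand column are not given in the sources used here. All 55536 gene identifiers were found in GENCODE M21, used for positions and exon lengths.

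Counts were tested in R 4.3.3 with edgeR 4.0.16 (limma 3.58.1): filterByExpr with a minimum count of 10 (20744 genes kept), TMM, and glmQLFit with glmQLFTest on all 6 libraries with a genotype term (3 residual degrees of freedom). P-values were adjusted by Benjamini-Hochberg over all tested genes and called under 0.05. SE is the absolute log2 fold change divided by the square root of F. Normalized counts are counts divided by a factor, the TMM-scaled library size over the geometric mean of all 6 sizes. CPM and RPKM use the same TMM-scaled sizes. Intervals cover counting error and the spread between these mice only. The limit of 3 counts for a count of 0 covers counting error only. On counts simulated for DKO against WT over 20422 genes, 98% of genes changed by a log2 of 2 and 78.8% of those changed by 1 were called, with 12 false calls. The changed genes were drawn from all genes with a mean of at least 10 counts. The shares were not split by count, so they do not describe H19 or other genes with few counts.

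The members and lists (other imprinted genes, imprint establishment and maintenance, IGF pathway, and the cell type markers) were chosen with earlier results of these data known. Every member is accounted for; those given by library are the called members, Igf2, members of the 3 sperm-methylated domains and the 10 with the highest RPKM, with others added for their values. Alternatives were RLE and upper-quartile scaling, no filter, a prior count of 2 instead of 0.125, genes with at least 50 counts on average, a replicate block, DESeq2 1.42.0 or edgeR on fewer libraries, length and GC offsets (lowess span 0.3), leaving out chromosome 4 and leaving out each library.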

Additional observations from a re-analysis of the deposited data

How the results depend on the processing

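Over all alternatives no called value of a tested imprinted gene reversed, while values that did not pass could change sign. The side of the threshold was kept in 540 of 540 values in P2KO against WT, in 503 of 503 in DKO against P2KO and in 506 of 524 in DKO against WT, where 17 calls were lost and 1 was gained (Peg10 without WT 1). The number of imprinted genes called lower in DKO against WT was 2 as reported. It was 1 with a mean of at least 50 counts (H19 then not tested), 1 with the replicate block, 1 with edgeR on the 2 genotypes compared and 1 without chromosome 4, and it was 0 with DESeq2 on all libraries, 0 with DESeq2 on the 2 genotypes, 0 with the length offset and 0 with the length offset and replicate block. Leaving out 1 library at a time gave 0 to 2 called lower and 0 to 1 called higher. The cause was not tested.

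The adjusted p of H19 was 0.0706 with the length offset, 0.0710 with edgeR on the 2 genotypes, 0.0546 without chromosome 4 and 0.588 with DESeq2 on the 2 genotypes (log2 fold change -1.11). DESeq2 on all libraries gave it no adjusted p. For Cdkn1c it was 0.0561 with the length offset and 0.266 with DESeq2 on the 2 genotypes. Replicate numbers did not pair the samples: same-numbered libraries deviated together with correlations of -0.057, 0.057 and -0.050. With the replicate block the adjusted p of H19 was 0.0764 and of Cdkn1c 0.0440, and with the length offset too 0.0920 and 0.0765.

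Calls over all genes in DKO against WT numbered 668 as reported, 403 and 296 with DESeq2 on all libraries and on the 2 genotypes, 1065 without WT 1, 340 without DKO 1 and 250 without DKO 2. In P2KO against WT they numbered 70, then 140 with no filter, 45 with the replicate block, 41 and 40 with DESeq2, 24 without chromosome 4 and 311 without WT 1. In DKO against P2KO they numbered 250, then 162 with DESeq2 on all libraries, 579 with edgeR on the 2 genotypes, 577 and 622 without WT 1 and WT 2, 162 and 144 without P2KO 1 and P2KO 2, and 115 and 108 without DKO 1 and DKO 2. For genes with few counts, H19 among them, the parts of sequencing depth and of the spread between 2 mice per genotype were not tested.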
